A study of Mus musculus with 30 samples.

Results

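EPOP regions that carry Elongin B numbered 761 of 5720 EPOP regions in E14Tg2A cells, a mouse embryonic stem cell line. They were chosen by the peaks that the authors listed for chromatin immunoprecipitation and sequencing (ChIP-seq) of EPOP and of Elongin B (EloB) without knock-down. An EPOP region was a merged interval holding a peak of both EPOP lists, and an EloB region, of which there were 930, was made likewise. Members were the EPOP regions that overlapped an EloB region by at least 1 bp, and the other 4959 EPOP regions serve as the comparison. The EPOP and EloB peaks without knock-down that chose the members are therefore given as description, without a test.

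The series covers 20 ChIP peak lists for 6 targets, all from E14Tg2A cells grown without feeders in serum with LIF. For EPOP and for EloB there were 2 lists upon EPOP knock-down and 2 lists without knock-down. For Suz12 and for H3K4me3 there was 1 list upon EPOP knock-down, 1 upon EloB knock-down and 2 without knock-down, and for Jarid2 and for H3K27me3 1 list upon EPOP knock-down and 1 without knock-down. EPOP, which the labels call C17orf96, was depleted in stable lines that carry a lentiviral short hairpin RNA (sh), and EloB by transfected small interfering RNA (si). Per the names of the deposited lists, Suz12 replicate 1 and H3K4me3 replicate 2 without knock-down are si controls, and Suz12 replicate 2 and H3K4me3 replicate 1 are sh controls. By these names EPOP replicate 2 and both EloB lists without knock-down are also sh controls, while that of EPOP replicate 1 gives no control type. EloB chromatin had an added protein crosslinking step, and EloB replicates 1 and 2 were made with different antibodies, EPOP replicates 1 and 2 with different lots of a home-made antibody. Nothing in the labels ties the replicates to separate cultures, and their spread may be technical.

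Polycomb repressive complex 2 (PRC2) methylates lysine 27 of histone H3 (H3K27me3) at silent CpG island promoters, many of them of developmental genes. Suz12 is a core subunit of PRC2, Jarid2 is an accessory subunit that helps to bring it to chromatin, and EPOP is another associated protein. EloB and Elongin C form a small adaptor that is shared by the Elongin transcription elongation factor and by ubiquitin ligases, and EPOP binds this adaptor. In embryonic stem cells many PRC2 targets are bivalent, which means that H3K27me3 and the promoter mark H3K4me3 lie on the same region.

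Each list held between 108 peaks (EPOP upon EPOP knock-down, replicate 1) and 47296 peaks (H3K4me3 upon EloB knock-down). The depth of the lists is unknown, and a missing peak gives no measure of the signal that remained. The labels of EPOP knock-down replicate 1 conflict: its title and antibody name EPOP but its description names IgG, and the description of the IgG sample names C17orf96. The title was followed, and each result that rests on this list is given with replicate 2, which has no such conflict, beside it. The peak score was set by the authors and starts at 50, and many peaks of some lists share a ceiling near 3100.

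EPOP regions that carry Elongin B held peaks of most of the lists that the rule did not use. Over these 16 lists a member held a peak in a median of 12, from 9 to 14, and another EPOP region in a median of 10, from 0 to 14. The median was also 12 on the 577 EPOP regions with an EloB peak in 1 list, or in both without overlap of the 2, and on the 1057 with Jarid2 and no EloB peak. Of the members, 744 (97.8%) carried Suz12, Jarid2, H3K27me3 and H3K4me3 together with EPOP and EloB in every list without knock-down. Without asking for EloB, the same 4 targets were found in every such list on 1472 (29.7%) of the other EPOP regions. This count is bounded by Jarid2, which had a peak on 1573 of the other EPOP regions. All members and all other EPOP regions hold a peak in both EPOP lists without knock-down by construction (100% of EPOP regions), and EloB replicates 1 and 2 had a peak on 16.3% and 20.6% of all EPOP regions.

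**Figure D1:**
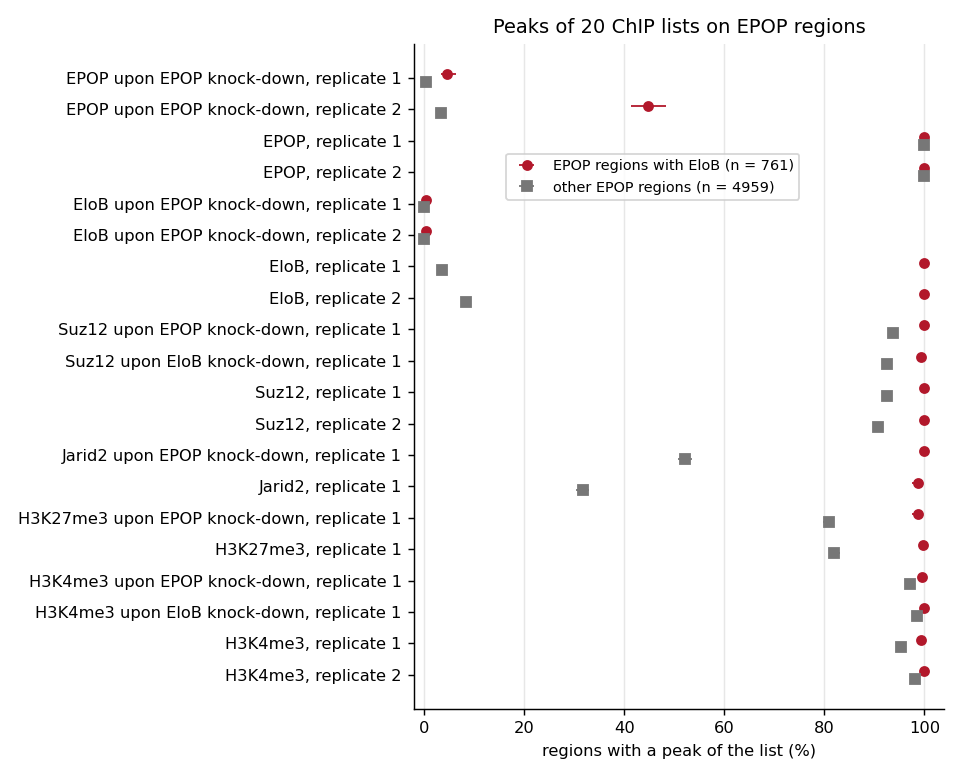
Share of regions (%, horizontal axis) that held a peak of each of the 20 ChIP lists (vertical axis), for the 761 EPOP regions with EloB (red circles) and the 4959 other EPOP regions (grey squares); bars are Wilson 95% intervals and cover counting error alone. The classes lie far apart in both Jarid2 lists and in EPOP knock-down replicate 2, where 44.8% of the members and 3.37% of the other EPOP regions held a peak.

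PRC2 was called at nearly every member. Suz12 had a peak on all 761 members in replicate 1 and in replicate 2 without knock-down, against 92.5% and 90.8% of the other EPOP regions and a background of 93.5% and 92% of all EPOP regions. H3K27me3 lay on 759 members (99.7%, Wilson 95% interval 99.0 to 99.9), against 82.0% (80.9 to 83.1) of the other EPOP regions and 84.4% of all EPOP regions. The promoter mark H3K4me3 lay on 756 members (99.3%) in replicate 1, where the background was 95.9%, and on 760 members (99.9%) in replicate 2, where it was 98.3%. The H3K4me3 shares were thus close to their background. The regions most like the members had similar shares: Suz12 replicate 1 lay on 100% of the EPOP regions with an EloB peak in 1 list or unshared and of those with Jarid2 and no EloB peak, and H3K27me3 on 98.8% and 95.5%.

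Of the targets that the rule did not use, Jarid2 set the classes furthest apart. It had a peak on 751 members (98.7%, 97.6 to 99.3) against 1573 (31.7%, 30.4 to 33.0) of the other EPOP regions and 40.6% of all EPOP regions. On the 577 EPOP regions with an EloB peak in 1 list or unshared, Jarid2 lay on 516 (89.4%). The members had high EPOP scores. With the 5720 EPOP regions divided into 10 bins of 572 by EPOP score (the mean score percentile of the 2 EPOP lists), bin 10 the highest, 83.4% of bin 10 carried EloB (477 of 572), 36.5% of bin 9 (209), 10.5% of bin 8 (60) and 1.75% of bin 7 (10). Bin 6 held 4 members and bin 5 held 1, and no member lay lower. Among other EPOP regions in bins 8, 9 and 10, Suz12 replicate 1 was found on 100% and H3K27me3 on 99.2%, 99.7% and 100%. Within bins of EPOP score the Jarid2 shares were closer: 100% of members and 98.9% of other EPOP regions in bin 10, 96.7% and 94.8% in bin 9, and 96.7% and 77.5% in bin 8. Averaged over bins with the members as weights, the share was 3.57 percentage points higher in members. This difference was 6.16 points with 5 bins in place of 10 and 12.0 points where an EloB peak in either list was enough.

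**Figure D2:**
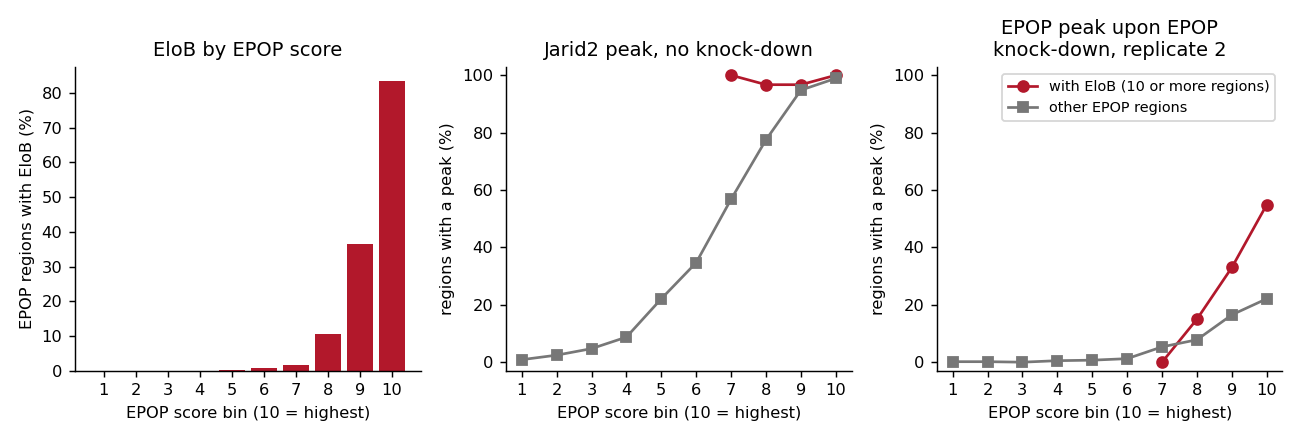
Left, share of EPOP regions with EloB (%) in each EPOP score bin (bin 10 is the highest); middle and right, share of regions (%) with a Jarid2 peak without knock-down and with an EPOP peak in EPOP knock-down replicate 2, for EPOP regions with EloB (red circles, bins with 10 or more members) and other EPOP regions (grey squares). In bin 10 Jarid2 was found on 100% of the members and 98.9% of the other EPOP regions, while EPOP peaks upon knock-down were found on 54.9% and 22.1%.

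Where both classes carried Jarid2, the peak score was higher on members in the 3 highest bins. In bin 10 of EPOP score the median Jarid2 score was 807 on members and 443 on other EPOP regions. It was 357 and 235 in bin 9 and 173 and 137 in bin 8. Division into 20 bins still left differences in EPOP score. In bin 20 of 20 the median Jarid2 score was 1090 on members and 498 on the 17 other EPOP regions. The median EPOP score there was 2259 and 2073 in replicate 1 and 2564 and 2217 in replicate 2. In bin 19 of 20 the median Jarid2 score was 544 on members and 425 on other EPOP regions, where the median EPOP score was 1335 and 1367 in replicate 1 and 1503 and 1296 in replicate 2. In bin 18 of 20 it was 393 and 282, with a median EPOP score of 1046 and 1047 in replicate 1 and 1095 and 1056 in replicate 2. Jarid2 peak width followed the same order with 10 bins, where the median in bin 10 was 3602 bp on members and 3278 bp on other EPOP regions. It was 2153.5 and 2138 bp in bin 9, and 1810 and 1691 bp in bin 8. With 20 bins the order of width was mixed. The median was 4599 bp on members and 4349 bp on other EPOP regions in bin 20, and 2765 and 3032 bp in bin 19. It was 2302 and 2303 bp in bin 18, 1933.5 and 2002.5 bp in bin 17, and 1931 and 1741 bp in bin 16. Jarid2 had 1 list without knock-down, so these differences have no replicate check, and the part of EPOP strength in them within a bin was not tested.

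The members were long regions. Their median length was 3897 bp (interquartile range 3050 to 5583 bp), and they made up 3.71 of 15.1 Mb of EPOP regions, 24.6%. The shortest lay on chromosome 3, 93249877 to 93250650 (774 bp, mm9), and the longest on chromosome 11, 96139917 to 96168744 (28828 bp). The short region carried EPOP with scores of 315 and 445 and EloB with 101 and 113, Suz12 with 3100 and 1593 and Jarid2 with 531, and no H3K27me3 peak without knock-down. It stands at the low end of the rule as well: its EPOP and EloB regions shared 675 bp, and the shortest shared stretch, 672 bp, lay on chromosome 17, 34135963 to 34137716.

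EloB peaks covered a central part of these regions. The EloB regions on members had a median length of 1725 bp and covered a median of 46.9% of the EPOP region (interquartile range 36.4 to 55.7%). The median EloB score on members was 122.4 and 162.6 in replicates 1 and 2, against 1328 and 1500 for EPOP. The part of this lower score in the covered length was not tested. In 758 members (99.6%) the largest EloB region lay wholly inside the EPOP region, and its midpoint was a median of 272 bp from the EPOP midpoint. A single EloB region was found on 694 members (91.2%), and 67 (8.8%) held more than 1, up to 4. The EloB midpoint fell inside a Suz12 peak in 100% and 99.6% of members, inside a Jarid2 peak in 98.4%, inside an H3K27me3 peak in 96.1%, and inside an H3K4me3 peak in 96.5% and 99.1%.

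**Figure D3:**
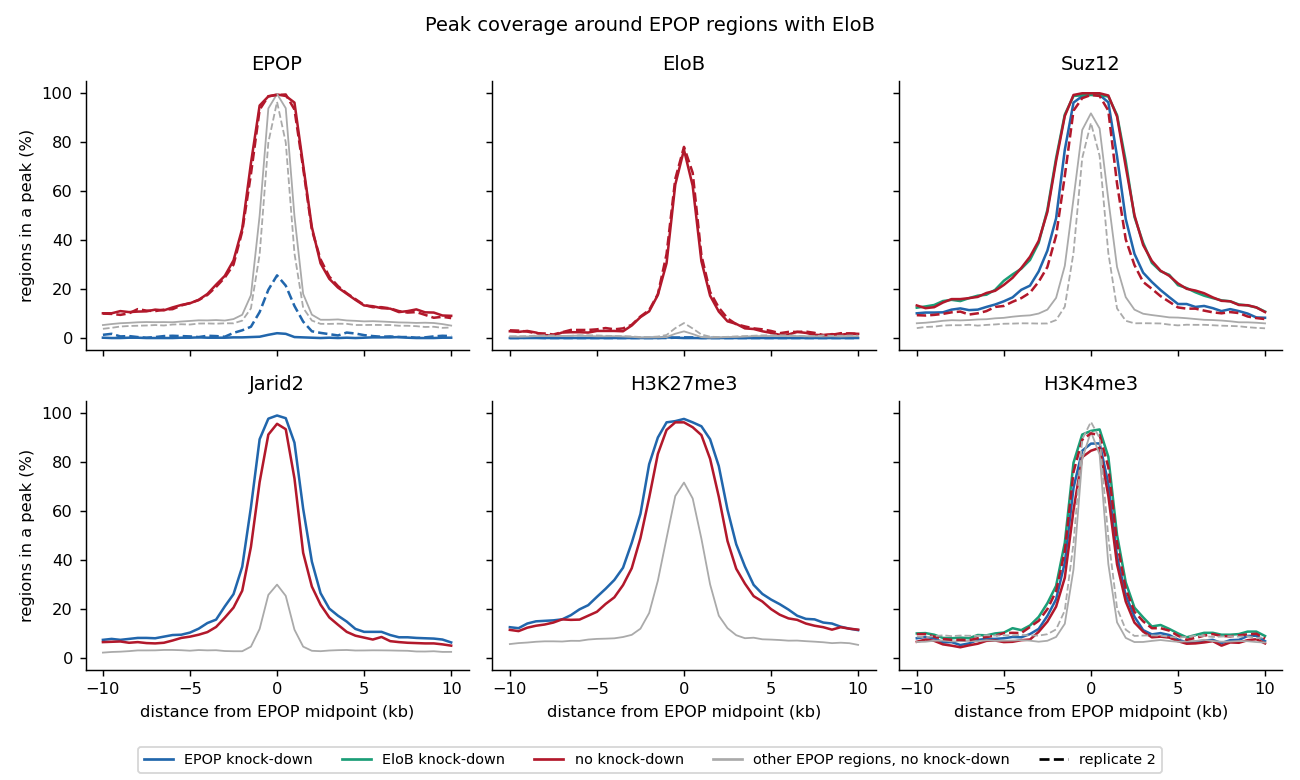
Share of regions (%, vertical axis) covered by a peak at each distance from the midpoint of the EPOP region (kb, horizontal axis, steps of 500 bp), in a panel for each target; blue is EPOP knock-down, green EloB knock-down and red no knock-down on the 761 members, grey no knock-down on the other EPOP regions, and dashes are replicate 2. EloB without knock-down formed the narrowest profile, EloB upon EPOP knock-down lay on the axis, and the Suz12, Jarid2, H3K27me3 and H3K4me3 profiles were highest at the midpoint or within 1 step of it.

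Within a member the EloB midpoint lay closer to H3K4me3 and to Jarid2 than the EPOP midpoint did. Among members with 1 EloB region, the median distance to the midpoint of the nearest H3K4me3 peak of replicate 1 was 154.5 bp from the EloB midpoint and 227 bp from the EPOP midpoint (689 members), and EloB was the nearer in 408 members, EPOP in 280. EloB was within 500 bp of it in 88.0% of these members and EPOP in 73.4%. With H3K4me3 replicate 2 the medians were 161.5 and 194.5 bp, and EloB was the nearer in 365 members, EPOP in 327. To the Jarid2 midpoint they were 161.25 bp and 208.25 bp. The order was the opposite for Suz12, with 320.75 bp from EloB and 252.75 bp from EPOP in replicate 1, and 219 and 142.25 bp in replicate 2. For H3K27me3 the medians were 441 and 415 bp. In 76 members the EPOP midpoint lay outside every H3K4me3 peak of replicate 1, and in 70 of them (92.1%) the EloB midpoint lay inside one. These 76 were picked by the EPOP midpoint, and the reverse case is not given here. Over all members the EloB midpoint lay inside such a peak in 96.5%, so the 92.1% is not a preference of EloB. EloB and H3K4me3 peaks are narrower than EPOP regions, and the part of peak width in these distances was not tested.

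**Figure D4:**
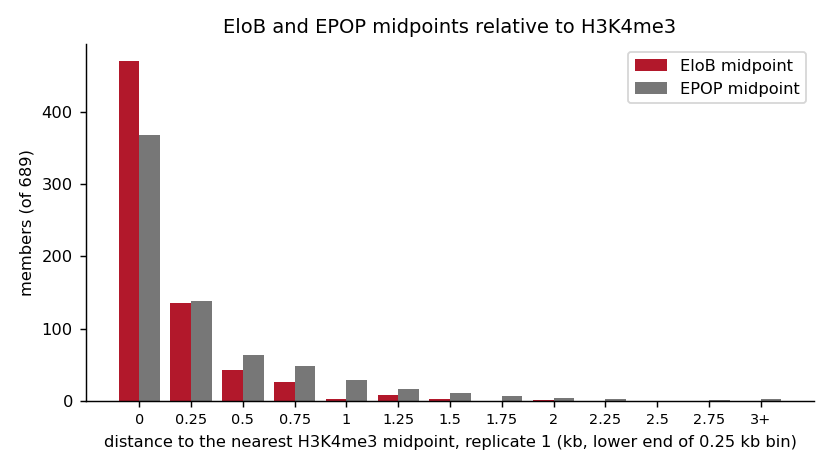
Number of members (of 689 with 1 EloB region and an H3K4me3 peak of replicate 1, vertical axis) by the distance of the EloB midpoint (red) and the EPOP midpoint (grey) to the nearest H3K4me3 midpoint, in bins of 0.25 kb. EloB midpoints are more numerous in the lowest bin and EPOP midpoints in most bins above it; 88.0% of EloB and 73.4% of EPOP midpoints lay within 500 bp.

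EloB scores varied widely among the members and ran with the EPOP and Jarid2 scores. Over the 761 members Spearman's rho between the EPOP replicates was 0.86 and between the EloB replicates 0.67, and between EPOP and EloB it was 0.62 to 0.68. Between Jarid2 and EloB replicates 1 and 2 it was 0.60 and 0.69 (751 members). H3K27me3 and EloB had a rho of 0.31 with both EloB replicates, and H3K4me3 and EloB 0.07 and 0.05 for H3K4me3 replicate 1 and 0.09 and 0.09 for replicate 2, lists in which 30.7% and 51.1% of members were at the score ceiling. By summed peak width, which has no ceiling, rho with EloB was 0.55 and 0.57 for H3K4me3 replicate 1, 0.59 and 0.63 for replicate 2, 0.58 and 0.57 for H3K27me3 and 0.66 and 0.73 for Jarid2. For Suz12 replicate 1 and EloB replicate 1 it was 0.09, a list in which 97.0% of members were at the score ceiling; with replicate 2 of both, where 56.4% were, it was 0.58, and by width these were 0.54 and 0.66. Each pair of lists shares the regions and their lengths, so these coefficients are descriptions.

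The member with the highest EloB score lay on chromosome 5, 33770935 to 33781440. It held EloB peaks with scores of 1329 and 1878 and a summed width of 5421 and 5322 bp, inside an EPOP region of 10506 bp. EPOP, Suz12 and Jarid2 were at 3100 there without knock-down, H3K27me3 had a score of 1312 and H3K4me3 1108 and 2581, and it held a peak in 18 lists. The next members lay on chromosome 13, 31892209 to 31901365 (EloB scores 822 and 993), on chromosome 9, 62982984 to 62999610 (737 and 1107), on chromosome 1, 42749687 to 42756977 (835 and 705) and on chromosome 2, 118525461 to 118531018 (629 and 711). All 5 were in bin 10 of EPOP score.

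The members with the lowest EloB scores differed in their Jarid2 and H3K27me3 scores. On chromosome 6, 39067038 to 39069675, EloB scored 50.0 and 59.4 over 1295 and 1456 bp, where EPOP scored 766 and 887, Jarid2 244 and H3K27me3 334. On chromosome 1, 74170027 to 74172293, EloB scored 50.3 and 52.1, EPOP 544 and 652, Jarid2 52.5 and H3K27me3 133, where the medians over members with a peak were 568.8 for Jarid2 and 529.4 for H3K27me3. On chromosome 12, 82432611 to 82435264, EloB scored 51.9 and 50.4, and the others of the 5 lowest lay on chromosome 6, 126592241 to 126596698, and on chromosome 2, 18619289 to 18621819. These values sit near the minimum score of the lists, and regions with higher EloB scores in a single list stand just outside the rule. Of the 577 other EPOP regions with an EloB peak in 1 list, or in both without overlap of the 2, there were 160 with replicate 1 alone, 404 with replicate 2 alone and 13 with both. The highest EloB score among those with a peak in 1 list was on chromosome 1, 93696746 to 93699973, with 249 in replicate 1 and no peak in replicate 2, beside EPOP scores of 1472 and 1376 and a Jarid2 score of 691. On chromosome 5, 37258405 to 37262221, the EloB score of replicate 1 was 246 and the Jarid2 score 88.0.

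Upon EPOP knock-down, EloB peaks were almost absent from the members. EloB had a peak on 2 members in knock-down replicate 1 and on 3 members in replicate 2, against 761 in each list without knock-down, and on none of the other EPOP regions in either knock-down list (Wilson upper limit 0.0774%; the background was 0.035% and 0.0524%). By the rule, few of the other EPOP regions had an EloB peak without knock-down, 3.49% in replicate 1 and 8.41% in replicate 2. Peaks covered 0.0464% and 0.068% of the members' length upon knock-down and 37.9% and 40.9% without, a log2 ratio of −9.43. The whole lists were also shorter, with 164 and 127 EloB peaks upon knock-down and 1296 and 1542 without. The rule sets the number of members with EloB without knock-down, so the members' loss is a description and was not set against that of other EloB peaks.

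The 5 members with an EloB peak upon knock-down did not repeat between replicates. Replicate 1 held chromosome 11, 102805858 to 102810831, with a score of 53.0 over 1009 bp, and chromosome 13, 58906952 to 58910757, with 75.1 over 710 bp. Replicate 2 held chromosome 4, 44713311 to 44719500, with 53.1 over 810 bp, chromosome 3, 115953678 to 115956721, with 73.7 over 826 bp, and chromosome 6, 53767056 to 53772180, with 65.7 over 885 bp. Without knock-down the EloB scores on these 5 regions ran between 86.6 and 446. All 5 were in bin 10 of EPOP score, and 4 of them also held an EPOP peak in EPOP knock-down replicate 2. Bin 10 held 477 of the 761 members, and 262 of these 477 (54.9%) held such an EPOP peak. Whether the 5 regions differ from the other members of bin 10 was not tested.

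EPOP peaks themselves were kept on a part of the members. EPOP had a peak on 35 members (4.6%, 3.33 to 6.33) in knock-down replicate 1 and on 341 (44.8%, 41.3 to 48.4) in replicate 2, against 0.262% and 3.37% of the other EPOP regions and 0.839% and 8.88% of all EPOP regions. Of the EPOP regions with such a peak, 72.9% of 48 in replicate 1 and 67.1% of 508 in replicate 2 were members. The kept peaks were small: their median score on members was 62.1 and 79.5, against 1330 and 1500 without knock-down, and they covered 0.836% and 12.5% of the members' length, against 94.4% and 93.6%. The log2 ratio of covered length was −3.82 over both knock-down lists, and −2.91 with knock-down replicate 2 alone. Peaks were found in both knock-down lists on 24 members, in either on 352 (46.3%) and in neither on 409 (53.7%).

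Kept EPOP peaks mostly had their midpoint where an EloB region was called without knock-down. Of the EPOP peaks upon knock-down on members in replicate 1, 33 of 35 (94.3%) had their midpoint inside an EloB region. In replicate 2 it was 375 of 400 (93.8%). For the midpoints of the whole EPOP regions, over all members, it was 632 of 761 (83.0%). These sets differ, because the former are single peaks on members that kept EPOP. In replicate 2 such members more often had high EloB scores, and the part of this in the difference was not tested. Of the 341 members with an EPOP peak in knock-down replicate 2, 337 (98.8%) had no EloB peak in either knock-down list. The member with the highest EloB score was one of those kept in both lists: EPOP scored 89.9 and 221 upon knock-down there, over 1118 and 3679 bp, and at least 3100 without, and no EloB peak was listed upon knock-down. Others kept in both lists were chromosome 4, 124333330 to 124338219 (62.1 and 205), chromosome 1, 74993834 to 74999498 (60.7 and 102), chromosome 13, 55925616 to 55934565 (77.7 and 81.6), and chromosome 8, 123637063 to 123643652 (53.4 and 256). Each of these others had a Jarid2 score upon knock-down above that without, for example 3100 against 1576 on chromosome 4. The region on chromosome 5 had 3100 in both Jarid2 lists. A higher Jarid2 score upon knock-down was not particular to these regions. The median over members with a peak was 1129 upon knock-down and 568.8 without, and on other EPOP regions 180.8 and 123.7.

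Within the 3 highest bins of EPOP score, members kept EPOP peaks more often than other EPOP regions in knock-down replicate 2. The shares were 54.9% and 22.1% in bin 10, 33.0% and 16.5% in bin 9, and 15.0% and 7.81% in bin 8. Bin 7 went the other way, with none of 10 members and 5.34% of 562 other EPOP regions. In replicate 1 they were 6.29% and 3.16% in bin 10, which rests on 30 members and 3 other EPOP regions. With 20 bins the shares of replicate 2 were 62.1% and 23.5% in bin 20, with 17 other EPOP regions, 45.7% and 21.8% in bin 19, 37.0% and 24.3% in bin 18 and 25.4% and 11.2% in bin 17. In each of these 4 bins the median EPOP score of replicate 2 was higher on members. The kept share also ran with the EloB score without knock-down: in 4 equal groups of members, from the lowest to the highest EloB score, it was 25.7%, 33.2%, 51.1% and 69.5% in replicate 2. In replicate 1 it was 3.66%, 2.63%, 2.63% and 9.47%. The median EPOP score of replicate 1 without knock-down was 945.3, 1181, 1353 and 2239 in these groups, and its part in the kept share was not tested.

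PRC2 stayed on the members upon EPOP knock-down. Suz12 had a peak on all 761 members, against 93.7% of the other EPOP regions (94.6% of all), and Jarid2 on 760 (99.9%), against 52.2% (58.5% of all). Within bins of EPOP score the Jarid2 shares lay close together: it was found on 100% of members in each of bins 10, 9 and 8, against 98.9%, 100% and 96.3% of the other EPOP regions. H3K27me3 had a peak on 751 members (98.7%), against 81.0% (83.3% of all), and H3K4me3 on 758 (99.6%), against 97.1% (97.4% of all). No member with a peak in every list without knock-down lost it upon EPOP knock-down for Suz12 (background 0.958%), Jarid2 (1.59%) or H3K4me3 (0.182%). Of the 10 members without a Jarid2 peak, 9 gained one upon EPOP knock-down, against 31.1% of 3386 other EPOP regions and 31.3% of all EPOP regions without Jarid2. The 9 lay in bins 8 and 9 of EPOP score, where 83.5% of 115 and 100% of 19 other EPOP regions without Jarid2 also gained a peak. Examples were chromosome 8, 124805445 to 124809532, with a Jarid2 score of 502 over 3096 bp upon knock-down and no peak without, chromosome 7, 51715991 to 51719372, with 255, and chromosome 16, 20619241 to 20623750, with 154.

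Jarid2 peaks were wider upon EPOP knock-down. The median summed width on members was 3358 bp upon knock-down and 2811 bp without, and the peak was wider on 689 of 751 members (91.7%; 89.3% of all EPOP regions). The median log2 ratio of width was 0.20 on members, with an interquartile range of 0.10 to 0.41, and 0.30 on other EPOP regions, with 0.13 to 0.55. Within bin 10 of EPOP score it was 0.17 on members and 0.22 on other EPOP regions, in bin 9 it was 0.25 and 0.29, and in bin 8 it was 0.33 and 0.34. In the 4 groups of EloB score, from low to high, it was 0.27, 0.21, 0.20 and 0.14, while the median Jarid2 width without knock-down was 2207, 2459, 2730 and 4243.5 bp. The Jarid2 list upon knock-down was longer as a whole, with 3665 peaks against 2641, and Jarid2 had 1 list in each condition, so no test was possible.

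H3K27me3 peaks were also wider upon EPOP knock-down, and less often split. The median summed width on members was 5464 bp upon knock-down and 4577 bp without, wider on 640 of 750 members (85.3%; 70% of all EPOP regions), with a median log2 ratio of 0.24 (interquartile range 0.08 to 0.50) against 0.19 on other EPOP regions (−0.10 to 0.55). More than 1 H3K27me3 peak lay on 16.1% of members upon knock-down and on 37.4% without, and on 13.6% and 18.4% of the other EPOP regions. The shares were 17.3% and 31.1% on the EPOP regions with an EloB peak in 1 list or unshared. On those with Jarid2 and no EloB peak they were 13.8% and 20.7%. The median log2 ratio of width in these 2 classes was 0.25 and 0.30. The median H3K27me3 score on members was 1005 upon knock-down and 529 without. Width and score did not always go together: on chromosome 2, 118525461 to 118531018, the H3K27me3 width was 13827 bp upon knock-down and 7192 bp without, and the score was 137 upon knock-down and 1402 without. In bin 10 of EPOP score the log2 ratio was 0.23 on members and 0.26 on other EPOP regions. Per the names of the deposited lists, the H3K27me3 list upon knock-down is of sh 3, and those of Jarid2, Suz12, H3K4me3 and EPOP replicate 2 with sh 4, so the hairpin number differs between targets, and its part in the H3K27me3 values was not tested. H3K27me3 had no replicate, and the H3K27me3 list upon knock-down held fewer peaks in all, 7956 against 8811.

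**Figure D5:**
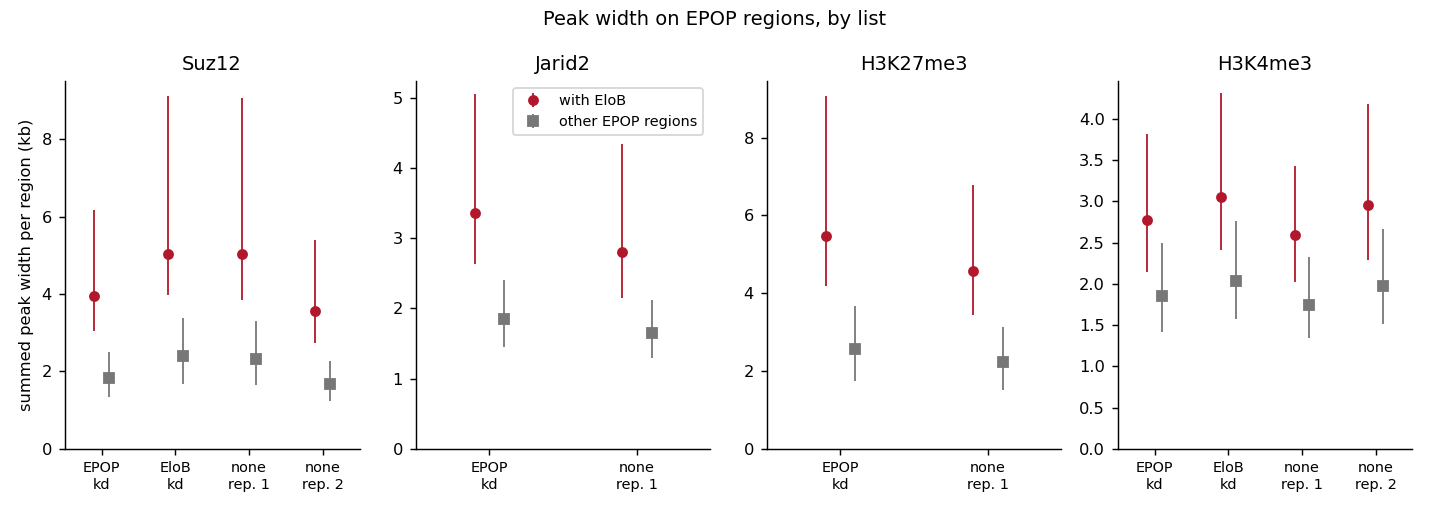
Summed peak width per region (kb, vertical axis, from 0) in each list of Suz12, Jarid2, H3K27me3 and H3K4me3; kd is knock-down, none is no knock-down and rep. is replicate. Points are medians and bars the interquartile range over regions, red circles for EPOP regions with EloB and grey squares for other EPOP regions. Members had the higher median in every list; their Suz12 median upon EPOP knock-down, 3950 bp, lay between the 5040 and 3559 bp of the lists without knock-down.

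The lists without knock-down differed in Suz12 width on members as much as any knock-down list did. The median was 3950 bp upon EPOP knock-down, 5044 bp upon EloB knock-down and 5040 and 3559 bp without (4299.5 ± 1047, SD, n = 2). Two-sided exact permutation tests over lists gave p = 1.000 for EPOP knock-down and p = 0.667 for EloB knock-down, where the smallest p that 1 list against 2 allows is 0.333. The mean and the tests pool an si and an sh control, so their spread includes the difference of method. Against the mean of the lists without knock-down, Suz12 was wider upon EPOP knock-down on 154 of 761 members (20.2%; 32.7% of all EPOP regions), with a median log2 ratio of −0.11. The direction depended on the control: the ratio was −0.31 against replicate 1 and 0.11 against replicate 2, the sh control. Against the sh control Suz12 was wider on 646 of 761 members (84.9%, and 75.2% of all EPOP regions). Upon EloB knock-down Suz12 was wider than the mean on 721 of 756 members (95.4%, and 87.5% of all EPOP regions), with a median log2 ratio of 0.24. The ratio was 0.02 against replicate 1, the si control, and 0.50 against replicate 2. Against the si control alone Suz12 was wider on 456 of 756 members (60.3%, and 58.6% of all EPOP regions). Between the controls themselves, replicate 2 over replicate 1, the median log2 ratio was −0.47.

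The H3K4me3 width on members upon EPOP knock-down lay between those of the control lists. EloB knock-down gave a median above both. The median was 2776.5 bp upon EPOP knock-down, 3056 bp upon EloB knock-down and 2594.5 and 2958.5 bp without (2776.5 ± 257.4, SD, n = 2), and the exact permutation tests gave p = 1.000 for EPOP knock-down and p = 0.667 for EloB knock-down, in the same design. H3K4me3 was wider than the mean of the controls on 356 of 756 members (47.1%) upon EPOP knock-down, where the background was 48.9%, with a median log2 ratio of −0.01. This was 0.07 against replicate 1, the sh control, and −0.08 against replicate 2. Against the sh control H3K4me3 was wider on 579 of 756 members (76.6%, and 74.2% of all EPOP regions). Upon EloB knock-down H3K4me3 was wider than the mean on 683 of 756 members (90.3%, background 85.9%), with a median log2 ratio of 0.13. The ratio was 0.21 against replicate 1 and 0.04 against replicate 2, the si control. Against the si control alone H3K4me3 was wider on 537 of 760 members (70.7%, and 63.8% of all EPOP regions). Against the control of the same method, the 4 ratios of Suz12 and H3K4me3 thus lay between 0.02 and 0.11.

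EloB knock-down left Suz12 and H3K4me3 peaks on the members. Suz12 had a peak on 756 members (99.3%), against 92.6% of the other EPOP regions (93.5% of all), and H3K4me3 on all 761, against 98.5% (98.7% of all). No member lost H3K4me3 (background 0.0547%). The 5 members without a Suz12 peak (background 1.31%), named here after their values were seen, were neighbours on chromosome 11 between 96130237 and 96216953, where a single Suz12 peak of 87683 bp in replicate 1 and separate peaks in replicate 2 covered them without knock-down. All 5 kept Suz12 upon EPOP knock-down, with a score of 3100 each.

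Members stood mostly alone. The median gap between neighbouring members was 1372656 bp, 608 had no other member within 50000 bp, and 153 (20.1%) lay in 66 runs of 2 or more. The longest runs were on chromosome 6 from 52124593 to 52268938 (7 members), on chromosome 2 from 74492654 to 74602488 (7 members) and on chromosome 11 from 96130237 to 96216953 (5 members). Mouse Hox genes lie in 4 clusters on chromosomes 2, 6, 11 and 15, but no mm9 annotation was used here, and no gene was assigned to a region.

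H3K27me3 was missing upon EPOP knock-down from 9 of the 759 members that carried it without, against 395 of 4068 other EPOP regions and 8.37% of all EPOP regions with H3K27me3. Upon knock-down H3K27me3 lay on 98.7% of members and on 98.4% of the EPOP regions with an EloB peak in 1 list or unshared. These 9, named after their values were seen, lay in 4 runs of neighbouring members. Of the run on chromosome 6, 3 of 7 members had no H3K27me3 peak upon knock-down, of that on chromosome 2, 1 of 7, of that on chromosome 11, 3 of 5, and of a run on chromosome 15 from 102750148 to 102847118, 2 of 3. On chromosome 6, 52164307 to 52186968, H3K27me3 scored 754 without knock-down over a summed width of 28738 bp and had no peak upon knock-down. In the same run the member at 52208058 to 52217230 had H3K27me3 scores of 1435 upon knock-down and 750 without, and the one at 52259410 to 52268938 had 2104 and 231, so losses and higher scores stood side by side. The members without H3K27me3 upon knock-down all kept Suz12 upon EPOP knock-down, with scores of 2951 to 3100 in Suz12 replicate 2 for the 3 on chromosome 6 and 3100 in each upon knock-down. A further member of that run, 52192346 to 52204811, had no H3K27me3 peak in either list, with Suz12 at 3100 and EloB scores of 172 and 299.

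Exceptions to the full set of marks were few, and up to 3 per mark, those with the highest EPOP scores, are named. H3K4me3 replicate 1 had no peak on 5 members, among them chromosome 12, 9585534 to 9589967, chromosome 13, 55934674 to 55939442, and chromosome 6, 52160775 to 52164296, where H3K4me3 replicate 2 scored 361, 219 and 94.3. These 3 carried EloB with scores of 87.5 and 320, 208 and 78.1, and 90.2 and 133. The median H3K4me3 score of replicate 2 over members was 3100, so these lie low in that list.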

How the data were processed

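Peak lists of 20 ChIP samples of E14Tg2A cells were used, 1 list per sample; RNA samples (9) and IgG (1) were not analysed here. The submitters' processing notes name Bowtie, TopHat, Cufflinks and build mm9, with neither role nor version. Peak names carry MACS per the files, with no settings. The authors gave each deposited peak a score, used to rank and filter; neither caller nor score is defined in the sources used here. Coordinates are mm9, counted from 1.

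Regions were built by merging peaks and counted as holding a list where they overlapped a peak by 1 bp. EPOP score bins divide the mean score percentile of both EPOP lists. Widths are summed over the peaks that touch a region, each counted in full, as log2 ratios to the mean of the lists without knock-down. Wilson 95% intervals cover counting only. Median widths were tested over lists with exact permutation tests. EPOP and EloB lists of the same number share an antibody or lot per the labels; over the 761 members the correlation of same-numbered EPOP deviations, over 2 pairs, was 0.10. Regions were named by a rule: the 5 highest and 5 lowest EloB scores, extremes of length, members with EloB upon knock-down, members kept in both EPOP knock-down lists, members without a mark, the longest runs, and regions at the edge of the rule. The members and lists were chosen with earlier results of these data known. Alternatives were EloB in either list, a distance of 1000 bp, a score of at least 100, other score bins, clipped widths, the replicate block and each list left out. Gene lists and sequences needed an mm9 annotation and were not used here. Python 3.11.15, NumPy 2.4.6, pandas 2.3.3, SciPy 1.17.1, Matplotlib 3.10.9 and bedtools 2.31.1 were used. The overlap code matched bedtools in 20 of 20 lists and was tested on simulated data.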

Additional observations from a re-analysis of the deposited data

How the results depend on the processing

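Of the alternative values, 115 were labelled as staying with the reported one, 27 as moved and 2 as reversed. These labels are loose. A Suz12 or H3K4me3 width ratio counted as staying unless its sign changed, so 0.02 and 0.50 both stayed with 0.24 for Suz12 upon EloB knock-down. The share of members with EPOP kept, 24.7%, was allowed its spread between lists, 28.4 points, so 4.6% and 44.8% both stayed. The counts are thus no measure of robustness. With an EloB peak in either list, 1373 regions carried EloB; Jarid2 lay on 94.0% of them and 12.0 points more often than on other EPOP regions at equal EPOP score; EloB was kept on 1.97%, the EloB length ratio was −5.94 and the Jarid2 width ratio 0.23. With scores of at least 100 there were 408 members, 0.0% kept EloB (no length ratio could be had) and the Jarid2 width ratio was 0.17. The Jarid2 difference was 5.08 points within 1000 bp, 6.16 with 5 score bins and 5.93 by the score of EPOP replicate 1 alone; clipped widths gave an H3K27me3 ratio of 0.20. Leaving out 1 list at a time gave 781 to 1178 members, Jarid2 on 95.3 to 98.3% of them, a Jarid2 difference of 2.69 to 9.22 points, EPOP kept on 4.6 to 44.8%, EloB kept on 0.212 to 2.33%, and length ratios of −6.81 to −2.91 for EPOP and −9.87 to −5.97 for EloB. The lowest EPOP ratio, −6.81, was without EPOP knock-down replicate 2, and the highest EloB ratio, −5.97, without EPOP replicate 1. For EPOP knock-down the Suz12 width ratio ran from −0.31 to 0.11, reversed without Suz12 replicate 1, and the H3K4me3 ratio from −0.08 to 0.07, reversed without H3K4me3 replicate 2; for EloB knock-down they ran from 0.02 to 0.50 and from 0.04 to 0.21. Each follows from the width of the control list that is left. With the replicate block, which pairs same-numbered lists, the length ratio was −4.86 for EPOP (−3.82 without) and −9.45 for EloB (−9.43 without), and no direction changed. Read depth is unknown, so the smallest peaks that each list could hold cannot be compared.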

Other observations

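Chromosome X carried almost no member. Of 95 EPOP regions on X, 1 carried EloB (1.05%, Wilson 95% interval 0.186 to 5.72), while on the autosomes the share ran from 10.8% on chromosome 10 (27 of 250) to 16.3% on chromosome 12 (42 of 258). EPOP scores were lower on X, with a median percentile of 37.8 and 6.32% of the regions in bins 9 and 10 of EPOP score. On the autosomes that share ran from 16.8% on chromosomes 4 and 17 to 24.1% on chromosome 2. The part of EPOP score in the low share was not tested. The single member on X, 90531030 to 90536731, had EloB scores of 79.7 and 257, EPOP scores of 968 and 1412 and a Jarid2 score of 767, and its H3K27me3 score was 904 upon EPOP knock-down and 67.8 without.

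The EloB regions outside EPOP were few: 841 of 930 EloB regions (90.4%) lay on the members. Of 4 equal groups of members by EloB score, the lowest held 7 of the 10 members without Jarid2, the next held 3, and none lay above. Region length ran with EloB score, with medians of 3141, 3445.5, 3901 and 5371.5 bp from the lowest group to the highest.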
